A study of Mus musculus with 33 samples.

Results

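Binding of Sin3A was compared with binding of ING1 in differentiated C2C12 myotubes, using the lists of ChIP-seq peaks that carry those labels. C2C12 is a mouse myoblast line that fuses into multinucleated myotubes when serum is lowered, and ChIP-seq sequences the chromatin fragments that an antibody pulls down and lists the stretches where they pile up as peaks. The lists were chosen by factor and state in the sample titles, which gave 5 of the 33 samples of the series: 2 replicate lists for Sin3A and 3 for ING1. The authors also deposited 1 pooled list for each factor, with 13845 autosomal peaks for Sin3A and 9570 for ING1, out of 396699 autosomal peaks in the 9 pooled or single lists of the series.

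The Sin3A lists came from C2C12 cells with no transgene named in the labels, through an antibody against Sin3A. The ING1 lists came from a stable C2C12 line made with the retroviral vector pBabe-puro and selected with puromycin, which expressed Flag-tagged ING1 ectopically, through an antibody against the Flag tag. Both kinds of myotube had spent 96 h, or 4 days, in medium with 2% horse serum. Most of the other lists compared below come from growing myoblasts, for which the labels give a higher percentage of serum. Chromatin had been sonicated to about 250 bp on average. The labels do not say how many clones the tagged line holds. The factor, the antibody and the cell line changed together, so a difference between the lists due to the factor and one due to the tagged line cannot be told apart. The series' design text places Sin3A in growing myoblasts, whereas the titles and the other sample labels give myotubes, which were followed. Whether the replicates were separate cultures is not given by the labels, and the p-values therefore cover only the spread among these libraries, possibly a technical one. Each peak is a pair of boundaries with no height, and the lists hold no read counts, so the depth behind them is unknown. Muscle markers could not be checked either, because no gene annotation of the mm9 build, which the coordinates follow, was used here.

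Sin3A is the scaffold of the Sin3 complexes, on which the histone deacetylases HDAC1 and HDAC2 and several accessory subunits assemble. ING1 is one of these accessory subunits, and its PHD finger binds histone H3 trimethylated at lysine 4 (H3K4me3), a mark of active promoters. In muscle cells Sin3 proteins are known both for silencing cell cycle genes after differentiation and for a role at genes of the sarcomere.

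The replicate lists differed far more in length than the pooled ones. Sin3A replicate 1 held 9270 autosomal peaks and replicate 2 held 426. ING1 replicates 1, 2 and 3 held 2151, 2485 and 122. A short list therefore stood in each group, and the groups overlapped (4848 ± 6254 peaks for Sin3A, SD, n = 2, and 1586 ± 1279 for ING1, SD, n = 3; two-sided exact permutation p = 0.6). With 10 possible arrangements of 2 lists against 3, no two-sided p below 0.2 could be reached. Without Sin3A replicate 1 the difference turned around, to −1160 peaks for Sin3A relative to ING1 (exact permutation p = 1).

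The median peak was 745.5 and 514 bp wide in Sin3A replicates 1 and 2, and 564, 577 and 479 bp wide in ING1 replicates 1 to 3. The shortest list of each factor also had the narrowest peaks. Group means of 629.75 ± 164 bp (SD, n = 2) and 540 ± 53.2 bp (SD, n = 3) did not differ beyond the spread (exact permutation p = 0.6), and without Sin3A replicate 1 the sign turned, to a difference of −26 bp. The pooled lists had nearly the same median width, 698 bp for Sin3A and 690.5 bp for ING1, and covered 0.477% and 0.318% of the autosomal span.

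**Figure D1:**
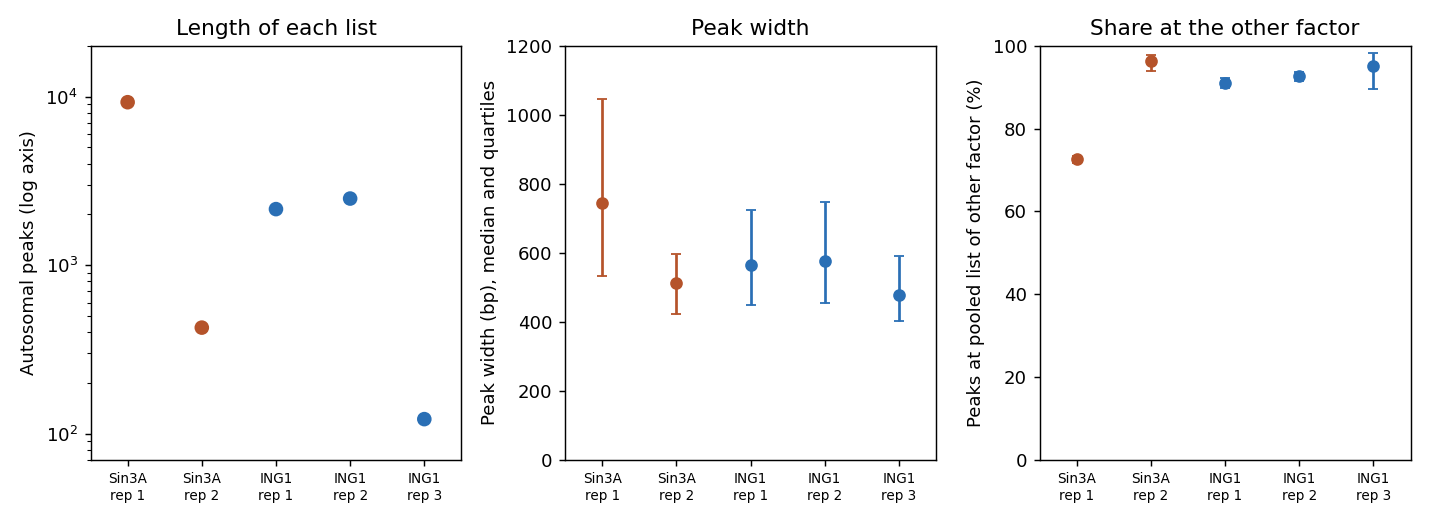
Number of autosomal peaks (left, log axis), peak width in bp (middle, median with quartiles) and percentage of peaks that overlap the pooled list of the other factor (right, with exact binomial 95% intervals) for the 2 Sin3A (brown) and 3 ING1 (blue) replicate lists. Sin3A replicate 1 has 9270 peaks and the lowest share at the other factor, 72.6%, and the other 4 lists lie between 91.0% and 96.2%.

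Most ING1 sites in myotubes were also Sin3A sites, and nearly as many Sin3A sites lay outside ING1 as at it. Of the 9570 pooled ING1 peaks, 7653 overlapped a pooled Sin3A peak by 1 bp or more (80.0%, exact binomial 95% interval 79.2 to 80.8%), and 1917 did not. Of the 13845 pooled Sin3A peaks, 7314 overlapped ING1 (52.8%, interval 52.0 to 53.7%), and 6531 did not. Such intervals cover counting error only. The shared stretches came to 5.38 Mb, which was 70.3% of the bases under ING1 peaks, 46.8% of those under Sin3A peaks and 39.1% of the bases under either.

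In the replicate lists of ING1, 91.0%, 92.6% and 95.1% of the peaks lay at pooled Sin3A (92.9% ± 2.04, SD, n = 3), all above the share in the pooled ING1 list. In the Sin3A lists, 72.6% and 96.2% of the peaks lay at pooled ING1 (84.4% ± 16.7, SD, n = 2). The 5 values did not separate the factors, and the lowest belonged to the longest list. When the lists of each factor were merged into unions instead of using the pooled lists, 88.0% of ING1 regions met Sin3A and 30.8% of Sin3A regions met ING1. In those unions the ING1 share rested on Sin3A replicate 1: without it, only the 426 peaks of replicate 2 could be met, and 10.4% of ING1 regions met them, while 79.6% of those 426 peaks met ING1.

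Overlap within a factor was not measurably larger than overlap between the factors. Sin3A replicate 1 contained 87.0%, 88.8% and 92.6% of the peaks of ING1 replicates 1, 2 and 3. The ING1 lists overlapped one another less, with 62.0% of replicate 1 in replicate 2, and 68.9% and 70.5% of replicate 3 in replicates 1 and 2. Sin3A replicate 2 lay inside Sin3A replicate 1 for 97.9% of its peaks, and in ING1 replicates 1 and 2 for 61.0% and 66.2%. The 2 shortest lists, ING1 replicate 3 and Sin3A replicate 2, shared 43.4% of the peaks of the former.

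Averaged over pairs, with the share taken of the shorter list, pairs within a factor shared 74.8% and pairs between factors 73.2%. The gap of 1.62 percentage points did not stand out among the 10 arrangements (one-sided exact permutation p = 0.5, smallest possible 0.1). Without Sin3A replicate 2 the gap was −22.4 points (exact permutation p = 1), and with all 5 lists shortened to their 122 widest peaks it was 0.478 points (exact permutation p = 0.4). These shares depend on the length of the longer list. Among the 3 longest lists, each shortened to its 2151 widest peaks, 55.2% of ING1 replicate 1 lay in ING1 replicate 2, and 40.3% of replicate 1 and 43.0% of replicate 2 lay in Sin3A replicate 1. Among these 3 lists at 2151 peaks the ING1 pair shared more than either ING1 list shared with Sin3A replicate 1, the reverse of their order at full length. This comparison was chosen after the full lists were seen, and with 1 Sin3A list it has no replicate check.

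**Figure D2:**
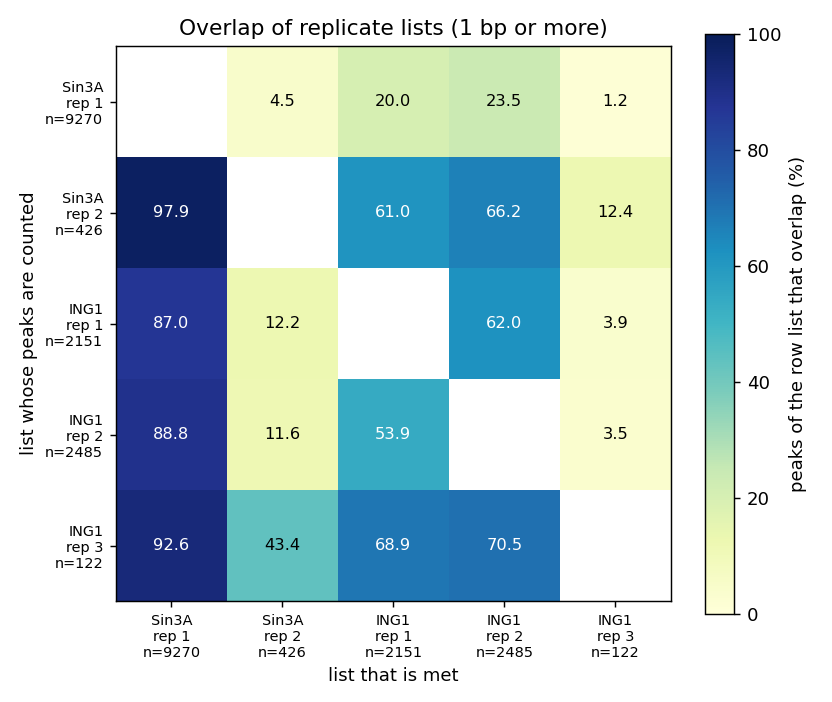
Percentage of the autosomal peaks of each row list that overlap each column list by 1 bp or more, with the number of peaks of each list on the axes. The column of Sin3A replicate 1 holds the highest value of every other row, from 87.0% to 97.9%, and the short lists in the columns meet few peaks of the long lists.

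At shared sites the centres of both peaks lay close together, and the Sin3A peak was more often the wider. In 5994 cases 1 pooled ING1 peak met 1 pooled Sin3A peak and neither met any other. Such pairs overlap by choice, which in itself limits the distance between the centres of their peaks. The median distance between their centres was 127 bp, with 41.2% of the pairs within 100 bp and 77.6% within 250 bp, the average fragment size. Median widths were 771 bp for ING1 and 921 bp for Sin3A, and the Sin3A peak was the wider in 63.8% of pairs. An ING1 peak lay wholly inside its Sin3A partner in 2148 pairs (35.8%), and a Sin3A peak inside its ING1 partner in 899 (15.0%).

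The same measurement in replicate lists gave a larger width difference. Between replicates 1 of both factors, 1703 such pairs had median widths of 577 bp for ING1 and 987 bp for Sin3A, and Sin3A was the wider in 85.3%. Between ING1 replicate 2 and Sin3A replicate 1 the widths were 586 and 983 bp over 1941 pairs, with Sin3A wider in 85.2%. Both comparisons use the same Sin3A list, the longest, whose peaks were also the widest of the 5 lists overall. The depth of that list was not known, and its part in the width difference was not tested.

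Some peaks met several peaks of the other factor. Of the pooled ING1 peaks, 368 (3.85%) met 2 or more Sin3A peaks. Of the pooled Sin3A peaks, 677 (4.89%) met 2 or more ING1 peaks, up to 4. The widest Sin3A peak found in both Sin3A replicate lists, chr10:79610281-79615602 (mm9), 5322 bp long, held 4. ING1 covered 66.0% of it, LSD1 of myotubes 58.8% and Wdr5 of myoblasts 94.1%.

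The profile by distance had the same scale. The share of pooled ING1 centres inside a pooled Sin3A peak was 73.2%. At 500 bp from the centres 42.2% of positions lay in a Sin3A peak, at 1000 bp 17.4%, at 2000 bp 4.70% and at 10000 bp 1.46%, against 0.841% at 500000 bp. Around Sin3A centres, ING1 covered 45.5%, 23.8%, 9.33%, 2.82% and 0.975% at the same distances and 0.571% at 500000 bp. Sin3A replicate 1 alone, with no pooling, covered 65.6% of the ING1 centres. LSD1 of myotubes, a demethylase of H3K4, had a lower peak of coverage, 29.7% at ING1 centres and 22.6% at Sin3A centres. MLL3 of myoblasts is a methyltransferase of H3K4 best known at enhancers. It covered 11.6% at ING1 centres, 15.5% at 10000 bp from them and 11.6% at 500000 bp. Around Sin3A centres it covered 12.2%, 14.6% and 11.4% at these distances. At the centres of ING1 peaks without Sin3A it covered 13.9%, against 11.7% at 500000 bp. For Sin3A peaks without ING1 these values were 14.6% and 11.1%.

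**Figure D3:**
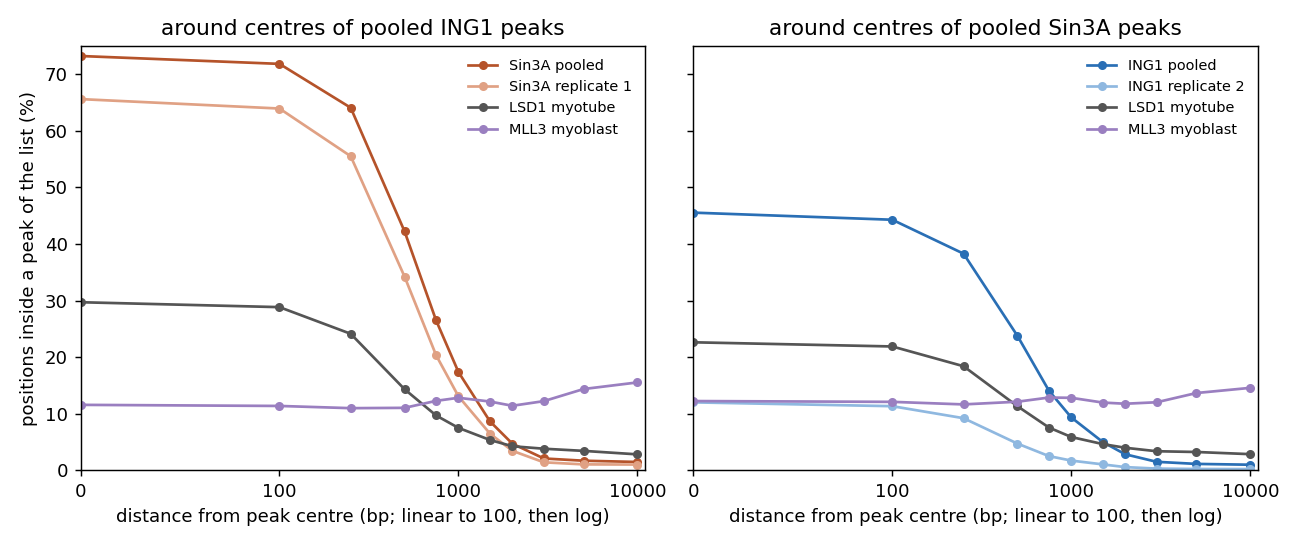
Percentage of positions inside a peak of each list against the distance from the centres of pooled ING1 peaks (left) and pooled Sin3A peaks (right), averaged over both sides, with distance in bp on an axis that is linear to 100 bp and logarithmic beyond. Coverage by the partner falls from 73.2% at ING1 centres and 45.5% at Sin3A centres to 1.46% and 0.975% at 10000 bp, and MLL3 is lower at the centres than at 10000 bp.

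Wide peaks were shared more often than narrow ones. Shared ING1 peaks had a median width of 752 bp and the others 527 bp. For Sin3A the medians were 939 and 549 bp, and 44.7% of shared Sin3A peaks were 1 kb or wider against 6.16% of the others. Over 10 classes of width of equal size, the share of ING1 peaks at Sin3A went from 57.3% in the narrowest class to 96.1% in the widest. The share of Sin3A peaks at ING1 was 25.8%, 21.5% and 24.0% in the 3 narrowest classes and then climbed in each class to 94.9%. In the widest class the factors were nearly alike, whereas among narrow peaks ING1 was accompanied far more often than Sin3A. A wide peak can meet another more easily, and that share of the trend was not tested.

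Peaks that replicate lists also held were shared more often. Pooled ING1 peaks found in 0, 1, 2 and 3 ING1 replicate lists lay at Sin3A in 73.5%, 92.5%, 93.7% and 97.4% of cases, over 6418, 1832, 1242 and 78 peaks. Pooled Sin3A peaks found in 0, 1 and 2 Sin3A lists lay at ING1 in 15.7%, 72.9% and 97.3%, over 5034, 8396 and 415 peaks. So the factors differed most in peaks that only the pooled list held: 73.5% of those of ING1 had a partner and 15.7% of those of Sin3A. These classes are unlike, with 67.1% of pooled ING1 and 36.4% of pooled Sin3A peaks in them. The ING1 replicate lists are all far shorter than Sin3A replicate 1, and the part of list length in this difference was not tested. Looked at from the other side, 38.3% of shared and 11.4% of unshared ING1 peaks were in a replicate list of their own factor, and 89.2% and 35.0% of Sin3A peaks. A replicate list of Sin3A held 90.1% of the shared ING1 peaks, and a replicate list of ING1 held 40.4% of the shared Sin3A peaks.

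Unshared peaks of ING1 lay nearer to Sin3A than the reverse. The median gap from an unshared ING1 peak to the nearest Sin3A peak was 12259 bp, with 22.3% within 500 bp and 40.2% within 5 kb. For unshared Sin3A peaks the gap to ING1 was 41465 bp, with 8.88% within 500 bp and 31.1% beyond 100 kb. The Sin3A list is the longer, and the part of its length in this difference was not tested.

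The other chromatin proteins of the series were more frequent where ING1 and Sin3A met. They are the H3K4 demethylase LSD1 in both states, ING1 in growing myoblasts, and 4 myoblast proteins of the H3K4 methylation machinery: the methyltransferases MLL1 and MLL3, the MLL1 cofactor Menin, and Wdr5, a core subunit of MLL complexes. The LSD1 list of either state and the MLL3 list each come from a single library without a replicate, whereas the others are pooled from replicates. Peaks are not replicates, so the classes were compared by their shares, by the number of the 19 autosomes with the same direction and within classes of width, with no p-value.

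LSD1 of myotubes lay at 37.8% of all pooled ING1 peaks, at 44.3% of those with Sin3A and 11.7% of those without. It lay at 29.4% of all Sin3A peaks, at 45.9% of those with ING1 and 11.1% of those without. Both differences had the same direction on 19 of 19 autosomes and in 10 of 10 width classes. LSD1 of myoblasts gave 34.5% of all ING1 peaks (39.9% with Sin3A, 13.0% without) and 24.9% of all Sin3A peaks (41.9% with ING1, 5.88% without), again on 19 of 19 autosomes for each factor. Shared sites thus carried LSD1 several times as often as sites of a single factor, in the list of either state. Each of these LSD1 lists is a single library.

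The H3K4 methylation machinery of myoblasts followed the same order, except MLL3. Wdr5 lay at 83.8% of all ING1 peaks, with 89.8% of shared and 59.9% of unshared ones, and at 65.0% of all Sin3A peaks, with 89.7% and 37.5%. Menin lay at 85.6% of ING1 peaks, with 90.5% and 65.9%, and at 68.0% of Sin3A peaks, with 90.6% and 42.8%. MLL1 lay at 34.6% of ING1 peaks, with 37.2% and 24.2%, and at 26.4% of Sin3A peaks, with 38.2% and 13.2%. For these 3 proteins the direction held on 19 of 19 autosomes and in every width class of either factor, other than 1 of 10 classes for MLL1 at ING1 peaks.

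MLL3 did not separate the classes by their overall shares. It lay at 19% of ING1 peaks, with 19.01% of shared and 19.09% of unshared ones, and was higher at shared peaks on 10 of 19 autosomes. At Sin3A peaks it lay at 20.7%, with 21.2% and 20.1%, higher on 11 of 19. By width, MLL3 was higher at shared ING1 peaks in only 1 of 10 classes, with a mean difference of −2.94 points. At shared Sin3A peaks it was higher in 3 of 10 classes, with a mean of −1.09 points. Both differences changed sign with the processing. The MLL3 list is the longest of the series, with 208538 peaks over 6.77% of the autosomal span.

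Sites with Sin3A alone were the poorest in most other factors. MLL3 (20.1% of unshared Sin3A and 19.1% of unshared ING1 peaks) and LSD1 of myotubes (11.1% and 11.7%) had overlapping intervals there. LSD1 of myoblasts was lower at unshared Sin3A peaks (5.88% and 13.0%). MLL3 and LSD1 of myoblasts were left out of the following count. Counting 5 lists together (LSD1 of myotubes and ING1, Wdr5, Menin and MLL1 of myoblasts), 43.5% of unshared Sin3A peaks met none of them, against 18.0% of unshared ING1 peaks and 1.24% and 1.35% of shared ING1 and Sin3A peaks. The median number of lists met was 1 for Sin3A alone, 2 for ING1 alone and 3 for shared peaks of either factor. All 5 lists were met by 15.2% of shared ING1 and 16.7% of shared Sin3A peaks, and by 1.77% and 1.45% of the unshared ones. Of the Sin3A-alone peaks 35.0% were in a Sin3A replicate list, against 89.2% of shared Sin3A peaks, and their median width was 549 bp. With the classes limited to pooled peaks found in a replicate list, the difference between shared and unshared Sin3A peaks went from 47.8 to 24.1 percentage points for Menin, from 52.2 to 29.7 for Wdr5, from 57.4 to 45.1 for ING1 of myoblasts and from 34.8 to 29.4 for LSD1 of myotubes. For LSD1 of myoblasts it was 31.2 points under this limit, down from 36.0, for MLL1 17.5, down from 25.04, while MLL3 had 3.73 points, up from 1.09.

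**Figure D4:**
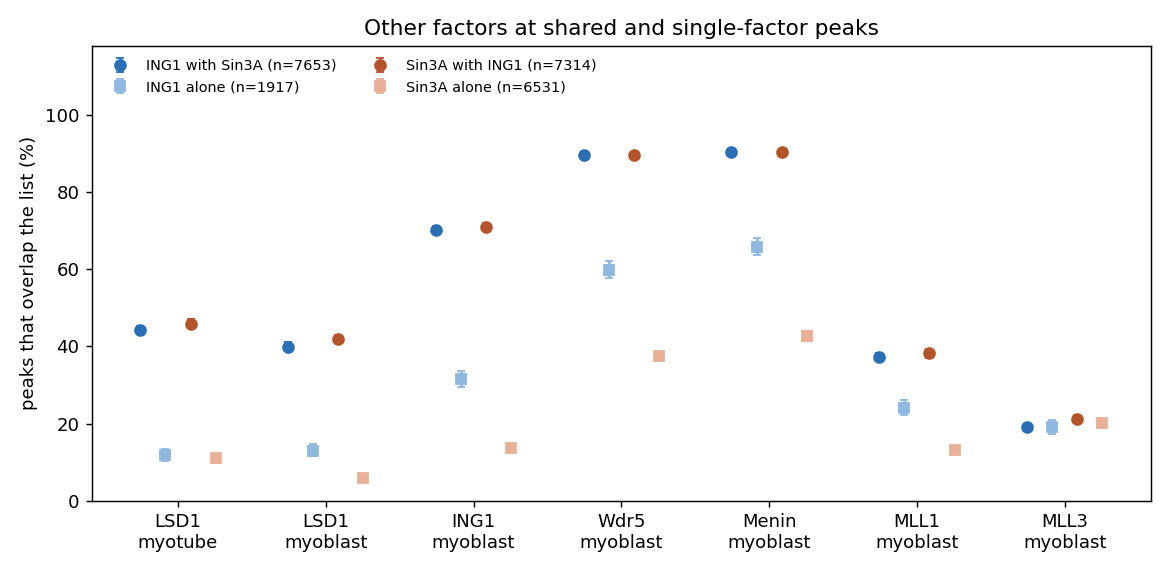
Percentage of pooled ING1 peaks (blue) and Sin3A peaks (brown) that overlap each of 7 other lists, for peaks with the other factor (dark circles) and without it (light squares), with exact binomial 95% intervals. Shared peaks are higher for 6 of the lists, for example 45.9% against 11.1% for LSD1 of myotubes at Sin3A peaks, and the 4 classes lie together for MLL3.

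ING1 binding in growing myoblasts separated the classes most widely for Sin3A. It lay at 62.5% of all myotube ING1 peaks (70.2% with Sin3A and 31.5% without) and at 44.0% of all Sin3A peaks (71.1% with myotube ING1 and 13.7% without). Both ING1 lists come from the tagged line. Split by both ING1 lists, 5197 Sin3A peaks (37.5%) had ING1 in both states, 2117 (15.3%) in myotubes only, 895 (6.46%) in myoblasts only and 5636 (40.7%) in neither. LSD1 of myotubes lay at 51.4%, 32.2%, 27.7% and 8.41% of these classes, and their median widths were 1011, 794, 670 and 537 bp. The 895 Sin3A sites with ING1 in myoblasts only had Wdr5 at 82.1%, close to the 81.3% of sites with ING1 in myotubes only. They had Menin at 88.7% and MLL1 at 40.2%, against 82.5% and 25.6% in the latter.

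These shares depend on the length of the lists, so all lists were also reduced to the 4419 widest peaks, the size of the shortest. Sin3A then lay at 61.4% of ING1 peaks (interval 60.0 to 62.9%), next to ING1 of myoblasts at 58.9% (57.4 to 60.4%), whose interval overlaps. Wdr5 with 48.5%, Menin with 46.9% and LSD1 of myoblasts with 46.6% followed and did not differ beyond their intervals. MLL1 with 32.0%, LSD1 of myotubes with 19.1% and MLL3 with 3.87% came last, each apart from its neighbours. For Sin3A peaks the order began with ING1 of myotubes at 60.2% and ING1 of myoblasts at 56.8%, whose intervals did not overlap, and LSD1 of myoblasts, Wdr5 and Menin followed at 48.4%, 47.4% and 47.2%. At this length either factor thus had its highest share with the other factor, for ING1 without a clear gap to its own myoblast list. At full length Menin (85.6% and 68.0%) and Wdr5 (83.8% and 65.0%) met more ING1 and Sin3A peaks than the other factor did (80.0% and 52.8%). LSD1 of myotubes, the other list of the same state, came seventh of 8 for both at equal length. At full length it met 37.8% and 29.4% of ING1 and Sin3A peaks, above LSD1 of myoblasts with 34.5% and 24.9%. The lists were cut by width, and the effect of that choice on the order was not tested.

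Between the replicate lists of Sin3A and ING1, no difference in the other factors at their peaks passed a test. LSD1 of myotubes lay at 39.6% and 46.7% of the peaks of the 2 Sin3A lists and at 46.6%, 49.4% and 52.5% of the 3 ING1 lists (43.1% ± 5.04, SD, n = 2, against 49.5% ± 2.92, SD, n = 3; two-sided exact permutation p = 0.4). ING1 of myoblasts lay at 60.5% and 82.2% of the Sin3A lists and at 81.9%, 82.4% and 88.5% of the ING1 lists (exact permutation p = 0.4). In both cases Sin3A replicate 1 was the lowest list and Sin3A replicate 2 fell among the ING1 lists. Without Sin3A replicate 1 the difference for ING1 of myoblasts went from −12.9 to −2.10 percentage points, and for LSD1 of myotubes from −6.36 to −2.79. Without Sin3A replicate 2 they were −23.7 and −9.92 points. Over the 7 other lists no groups were free of overlap, and every p adjusted by Benjamini and Hochberg was 1 in these exact permutation tests. The difference in means went from 12.9 percentage points lower in Sin3A, for ING1 of myoblasts, to 1.64 points higher, for MLL1.

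In the pooled lists, chromosomes 10 and 15 carried more Sin3A peaks per ING1 peak than the other autosomes. The ratio of pooled peaks was 2.34 on chromosome 10 and 1.75 on chromosome 15, with a median of 1.40 over 19 autosomes and a lowest value of 1.18. Chromosome 13 came next with 1.71, close to chromosome 15. Of the Sin3A peaks of chromosome 10, 356 of 996 lay at ING1 (35.7%, interval 32.8 to 38.8%), and on chromosome 15 404 of 1047 did (38.6%, interval 35.6 to 41.6%). The other autosomes ranged from 45.9% to 60.9%. From the ING1 side the chromosomes differed: 88.5% of ING1 peaks on chromosome 10 lay at Sin3A, the highest of all, and 70.2% on chromosome 15, the lowest.

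Chromosome 10 held 4.45% of pooled ING1 peaks in myotubes and 4.44% in myoblasts, both from the tagged line. It held 7.19% of Sin3A peaks and between 5.39% (MLL3) and 7.61% (Wdr5) of the peaks of the 6 other lists, which come from cells with no tag named. In the replicate lists the share on chromosome 10 was 5.91% and 5.63% for Sin3A and 4.28%, 4.10% and 6.56% for ING1, the last from 8 of 122 peaks. The groups overlapped (exact permutation p = 0.6), a measure added after the chromosome counts were seen. On chromosome 15 the replicate lists held 5.30% and 9.15% for Sin3A and 7.11%, 7.28% and 8.20% for ING1. The difference in means there was −0.305 points, opposite in sign to that of the pooled lists. The factor and the line cannot be told apart here. The 640 unshared Sin3A peaks of chromosome 10 were found in Sin3A replicate 1 in 28.0% of cases and the 643 of chromosome 15 in 16.5%, against 35.0% of unshared Sin3A peaks in a replicate list over all autosomes. Leaving out chromosome 10 moved the share of Sin3A peaks at ING1 to 54.2%, and leaving out chromosome 15 to 54.0%.

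**Figure D5:**
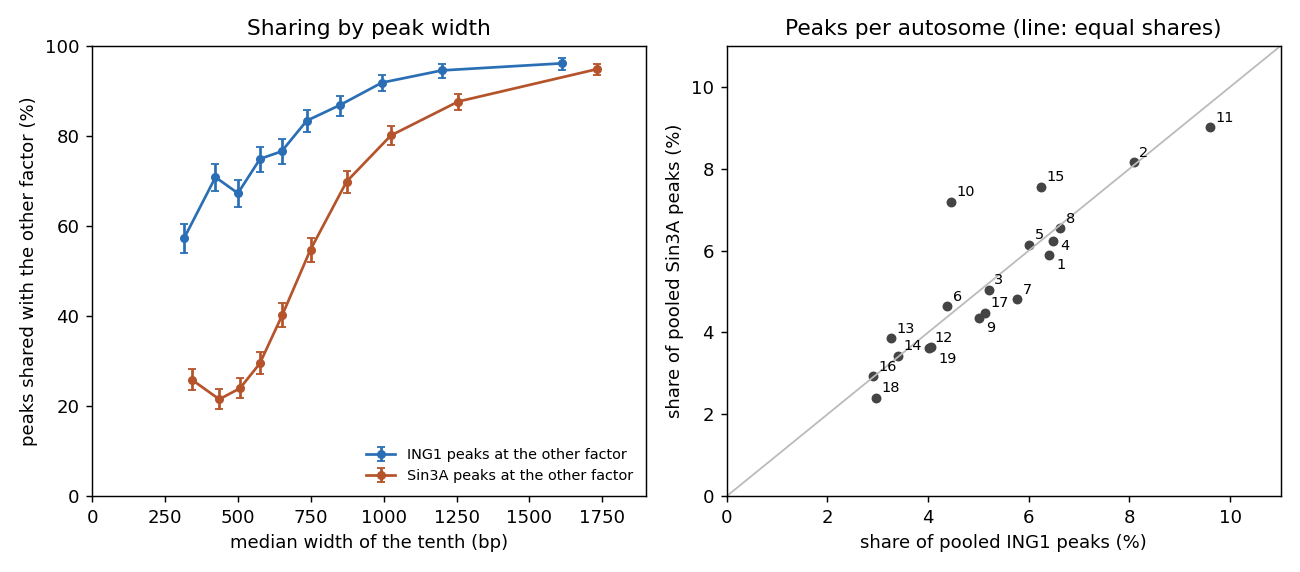
Left, percentage of pooled peaks shared with the other factor in 10 width classes, against the median width of the class in bp, with exact binomial 95% intervals. Right, share of all pooled Sin3A peaks against the share of all pooled ING1 peaks on each autosome, with a line of equal shares. ING1 runs from 57.3% to 96.1% and Sin3A from 25.8% to 94.9% over the width classes, and chromosome 10, with 4.45% of ING1 and 7.19% of Sin3A peaks, lies farthest above the line.

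Individual sites are given in mm9 coordinates without genes. Pooled Sin3A peaks found in both Sin3A lists numbered 415, pooled ING1 peaks in all 3 ING1 lists 78, and pooled ING1 peaks in all 5 lists 30. Of those 30, 30 were at ING1 of myoblasts, 29 at Wdr5, 27 at Menin and 16 at LSD1 of myotubes. Over all pooled ING1 peaks the shares were 62.5%, 83.8%, 85.6% and 37.8% in the same order. The 78 ING1 peaks in all 3 ING1 lists, whether or not at Sin3A, had 77, 74, 71 and 41. Median width was 1279.5 bp in both sets, against 690.5 bp over all pooled ING1 peaks. The widest of the 30 was chr17:34253841-34257965, 4125 bp, of which Sin3A covered 90.1% in 2 peaks, LSD1 of myotubes 90.5%, Wdr5 100% and MLL1 0%. Next came chr13:30076396-30078567, 2172 bp, with Sin3A over 94.1% and Wdr5 over 98.6% but no LSD1 peak in either state. The third, chr1:55143780-55145868, 2089 bp, had Sin3A over 90.0% and held a peak of each of the 7 other lists.

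The other named sites varied likewise. At chr19:37449685-37451704 Sin3A covered 67.0% of the ING1 peak and MLL1 93.5%, with no LSD1 peak of myotubes. At chr10:80639247-80641049 Sin3A covered all of it and LSD1 of myotubes 95.5%, and neither MLL1 nor MLL3 had a listed peak there. Among wide Sin3A peaks in both Sin3A lists, chr1:59538371-59543221 (4851 bp) had ING1 over 60.7% and MLL1 over 69.3%, and chr8:86724586-86728408 (3823 bp) had ING1 over 81.2% and a peak of each other list. Of the ING1 peaks in all 3 ING1 lists, chr15:58911512-58913972, had ING1 replicate 2 over 51.5%, Sin3A over 91.5% and no peak of Sin3A replicate 2.

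Well-supported sites of a single factor were few. There were 78 ING1 peaks in 2 or more ING1 lists that met no peak of any Sin3A list. Among them 9 had LSD1 of myotubes and 59 had Wdr5, beside 37.8% and 83.8% of all pooled ING1 peaks. Of the 78 ING1 peaks in all 3 ING1 lists 41 had LSD1 of myotubes and 74 had Wdr5. The latter set was also better supported and wider (median 1279.5 against 769 bp), so the 2 sets differ in more than Sin3A. The widest was chr15:102075782-102078078, 2297 bp, 13761 bp from the nearest Sin3A peak, with Wdr5 over 100% and ING1 of myoblasts over 78.4%. At chr1:183771724-183773317 the nearest Sin3A peak was 175811 bp away, ING1 replicates 1 and 2 covered 64.2% and 59.7%, and MLL1 covered 95.5%. At chr19:12869999-12871550 a Sin3A peak lay 109 bp away, and LSD1 of myotubes covered 22.5%.

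Sin3A replicate 2 held only 426 peaks, and 415 pooled Sin3A peaks were in both Sin3A lists. Beside 47.2% of all pooled Sin3A peaks without pooled ING1, 8 of these 415 met no ING1 list. The widest was chr14:70203846-70205767, 1922 bp, where Sin3A replicates 1 and 2 covered 89.2% and 31.7%, the nearest ING1 peak was 96388 bp away, and no LSD1 peak was listed. ING1 of myoblasts covered 46.3% of it and MLL1 39.3%, so ING1 was listed there in growing cells. At chr15:34424567-34425617, 50537 bp from ING1 of myotubes, ING1 of myoblasts, Wdr5 and Menin each covered 100%. ING1 of myoblasts lay at 4 of these 8 sites and LSD1 of myotubes at 1, beside 44.0% and 29.4% of all pooled Sin3A peaks.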

How the data were processed

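Peak lists from ChIP-seq of C2C12 cells were used as deposited: chromosome, left and right end of each peak, per the file headers, with no score. Bowtie 0.12.9, SAMtools 0.1.19, bedtools 2.17.0 and build mm9 (NCBIM37) are named in the submitters' processing notes. No peak caller, calling threshold or method of pooling is given in the sources used here. A list's length and its peaks' widths depend on these and on depth, which is unknown. The left boundary was taken as 0-based, and starts are printed 1-based.

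Only autosomes 1 to 19 were used. Overlap meant 1 bp or more. Replicate lists were compared by exact permutation of the 10 arrangements, with Benjamini-Hochberg adjustment over 7 measures, and shares carry exact binomial 95% intervals. Computation used Python 3.11.15, NumPy 2.4.6, SciPy 1.17.1 and matplotlib 3.10.9, and the overlap code was tested on simulated data. Named regions were, by rule, up to 5 of the widest pooled peaks found in both Sin3A lists, in all 3 ING1 lists, in all 5 lists, in 2 or more ING1 lists without Sin3A, and in both Sin3A lists without ING1. The text gives those that show how sites vary. The lists and rules were chosen with earlier results of these data known. Alternatives were other overlap rules, unions, supported peaks, equal lengths, omitted replicates, omitted chromosomes and a replicate block. Gene positions, gene lists and sequences had been planned but need an mm9 annotation or genome, which was not used here. The inputs and the RNA-seq libraries were not used here.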

Additional observations from a re-analysis of the deposited data

Results flagged for a closer look

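Peaks on the mitochondrial genome lay outside all comparisons. There were 5 in ING1 replicate 2, 9 in ING1 replicate 3, 9 in Sin3A replicate 1, 15 in Sin3A replicate 2 and 11 in the pooled ING1 list. Each was above 3, a limit that applies to a count of 0 and served here only to flag lists. No list had a count of 0, so passing that limit is not a test. Among the replicate lists of each factor the shortest had the most. ING1 replicate 1, with 3, and the pooled Sin3A list, with 2, did not exceed that limit. The lists used here hold no peaks of an input sample to set beside them, and the origin of these peaks was not tested.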

How the results depend on the processing

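The share of ING1 peaks at Sin3A (80.0%) was 76.3% with an overlap of 50% of the shorter peak, 84.4% within 500 bp, 76.3% in the wider 50% of each list, 88.0% with unions, 88.9% with peaks in a replicate list and 71.4% at equal length. In unions without each replicate it ranged from 10.4%, without Sin3A replicate 1, to 88.9%. The share of Sin3A peaks at ING1 (52.8%) was 50.5%, 57.0%, 30.8%, 32.7% and 65.8% with 50% overlap, within 500 bp, with unions, with supported peaks and at equal length, 54.0% without chromosome 15 and 54.2% without chromosome 10 (added after seeing the data). In unions without each replicate it ranged from 20.4% to 79.6%. The causes were not tested.

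Of the per-list differences (Sin3A minus ING1), LSD1 of myotubes reached the smallest two-sided exact permutation p of 0.2 with chromosome X added (−6.33 points) and with 50% overlap (−4.56 points), no p could fall below 0.05, and 18 of 93 alternatives changed a sign. Without each replicate in turn, peaks per list ranged from −1160 to 7684, width from −26 to 205.5 bp and the gap within minus between factors from −22.4 to 12.3 points. The other ranges, in percentage points, were −23.7 to −2.10 for ING1 of myoblasts, −9.92 to −2.79 for LSD1 of myotubes, −7.70 to 4.05 for LSD1 of myoblasts, −8.26 to 2.89 for Wdr5, −3.67 to 2.44 for Menin, −2.79 to 4.08 for MLL1, −0.381 to 2.79 for MLL3 and, for the shares on chromosomes 10 and 15, 0.355 to 1.58 and −2.23 to 1.62. With each list shortened to 122 peaks the difference was 6.15 points for LSD1 of myotubes, 6.56 for LSD1 of myoblasts, 3.28 for Wdr5, −2.19 for ING1 of myoblasts and 0.410 for chromosome 15. With 50% overlap it was −0.00327 for MLL3.

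The groups share replicate numbers 1 and 2 only. The deviations of same-numbered lists correlated with r = −0.155 and 0.142 over 9580 regions, but with 2 Sin3A lists their deviations mirror each other, so this check cannot tell whether the numbers pair the lists. No label ties the numbers to a shared culture or day, and the lists were not treated as paired. With the replicate block the signs turned for Menin (−3.67), MLL1 (−2.79) and chromosome 15 (0.0275), and the smallest possible exact p was 0.5.

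Of 56 alternatives for other factors with minus without the partner, 52 kept the direction and 4, all for MLL3, reversed it: 3.87 points with supported peaks and 0.141 without chromosomes 10 and 15 at ING1 peaks (−0.0802 as reported), and −2.26 with 50% overlap and −1.09 within width classes at Sin3A peaks (1.09 as reported). Distances to promoters, gene lists and sequence measures were not run. Depth is unknown, so no limit on undetected sites can be given.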
